A study of Mus musculus with 12 samples.

Results

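The genes described here encode the subunits of RNA polymerases I, II and III and the factors that place these enzymes on their promoters. They were chosen by symbol: every gene of the array named Polr1, Polr2 or Polr3, the general transcription factors named Gtf2 and Gtf3, the polymerase I factors Taf1a to Taf1d, Rrn3, Ubtf and Ttf1, and the TATA-binding protein Tbp. The rule found 50 genes among the 12393 of the array that carry a single symbol, and each was read from the probe set (the group of probes that measures 1 transcript) with the highest mean. They comprise 10 genes of the polymerase I system, 15 of the polymerase II system and 14 of the polymerase III system. A further 2 encode subunits shared by polymerases I and III, 3 encode subunits shared by all 3 enzymes, 1 is Tbp, and 5 bear a matching symbol but are not core subunits or general initiation factors of these systems (Gtf2a1l, Gtf2i, Gtf2ird1, Gtf2ird2 and Polr2m).

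The data are RNA levels of whole striatum from C57Bl/6 mice, 1 Affymetrix array for each mouse, in 4 groups of 3 mice: TIF-IAD1RCre mutants and controls at 9 weeks, and TIF-IAD1RCre mutants and controls at 13 weeks. TIF-IA is the protein encoded by Rrn3, and the name of the line says that it was removed by a Cre recombinase driven from the dopamine D1 receptor gene, which acts in cells that carry this receptor, among them a part of the medium spiny neurons. The alleles that the control mice carry were not given in the sources used here, and the labels name no other treatment. Medium spiny neurons are also the labelled cell type, but the tissue is whole striatum, so glia, vessels and interneurons contribute RNA.

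Polymerase I makes the large ribosomal RNA precursor, polymerase II makes messenger RNA and polymerase III makes transfer RNAs, 5S ribosomal RNA and other small RNAs. Each enzyme shares some subunits with the others and has initiation factors of its own, and TIF-IA is the factor that joins polymerase I to the promoter complex and lets ribosomal RNA synthesis follow the growth state of the cell. Without it polymerase I initiation is lost, which in neurons is known to disturb the nucleolus.

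Values are log2 expression levels after GCRMA, a normalization that corrects each array for background and summarises probes, so a difference of 1 is a doubling. A gene was tested when it lay above its array's 40th percentile, which was between 3.51 and 3.81, in at least 3 arrays, and 8256 genes passed, among them 47 of the 50. The 3 that did not pass were Ttf1, which encodes the polymerase I termination factor and read 3.12 to 3.92 over the 12 arrays, Polr3g, the polymerase III subunit gene related to Polr3gl, which read 2.03 to 2.66, and Gtf2a1l, a germ cell relative of Gtf2a1 that read 2.11 to 2.22. Among the tested genes the mean level ran between 4.23 for Polr1b and 10.70 for Polr2g. A difference passed the test when its adjusted p in limma, with Benjamini-Hochberg adjustment over all tested genes, was under 0.05. The labels say that the mice of a group are biological replicates.

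Several features of the arrays bear on what follows. The third control mouse at 13 weeks correlated with the other controls of its age at 0.976 and 0.979, whereas the other 10 pairs of arrays within a group correlated at 0.989 to 0.997. It lay outside the range of its group mates for 42 of the 47 tested genes, by over 0.5 for 19 of them. Judged by Xist and the Y-linked transcripts, all 3 mutants at 13 weeks were female, against 1 of 3 mice in each other group, and that control mouse was the only female control of its age. The third mutant at 9 weeks and the first control at 13 weeks had high levels of Slc17a6 and Calb2, genes of thalamic neurons. The second control at 13 weeks read 4.44 and 5.01 for them, below those 2 arrays and above all the others. At 13 weeks all 12 tested medium spiny neuron markers were lower in mutants than in controls, and 11 of them passed the test. Their summed level (mean of the markers) was 8.66 to 9.43 in mutants and 10.97 to 11.49 in controls. At the same age all 9 microglia and all 8 astrocyte markers were higher, and 9 and 7 of them passed. The microglia mean was 11.77 to 12.13 in mutants against 9.11 to 9.53 in controls. The astrocyte mean was 11.65 to 11.80 in mutants against 9.61 to 9.78 in controls. All 4 endothelial markers were higher and 3 of them passed. Ttr, the 1 choroid plexus marker tested, was higher by 2.26 and passed (3.35 to 7.32 in mutants against 2.86 to 3.19 in controls). Of 5 oligodendrocyte markers 0 passed in limma, and 2, Mag and Cnp, had an unadjusted p under 0.05. At 9 weeks the mean of the neuron markers was 10.38 to 10.80 in mutants and 11.29 to 11.31 in controls. All 12 were lower in mutants, and 3 of them passed the test. In such bulk tissue, fewer cells of a type and less RNA per cell cannot be told apart, and the part of these changes in the results below was not tested.

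The share of the transcription genes that differed by genotype was near that of all genes at 9 weeks and below it at 13 weeks. At 9 weeks 2 of 47 passed the test, or 4.26%, where 5% of all tested genes did. Rrn3 was lower, as were 2.98% of all genes, and Gtf3c6, a subunit of the polymerase III factor TFIIIC, was higher, as were 2.02%. At an unadjusted p under 0.05 there were 12 of 47, or 25.5%, where 21.4% of all genes were. At 13 weeks 8 of 47 passed, or 17.0%, where 45.3% of all tested genes did. Taf1a, Gtf2f2 and Gtf3c6 were higher in mutants, against 23.4% of all genes. Ubtf, Gtf2e2, Gtf3c1, Polr3d and, on the probe set used, Taf1d were lower, against 21.9% of all genes. Other probe sets of Taf1d were higher, as given below. Whether the groups overlapped gives further counts, without a test. At 9 weeks all 3 mutants lay above all 3 controls for 12 of the 47 genes (25.5%, against 15% of all genes) and below them for 7 (14.9%, against 20.6%). At 13 weeks they lay above for 8 (17.0%, against 27.8%) and below for 9 (19.1%, against 26.8%). These counts move with the third control mouse at 13 weeks: without it, 10 genes passed at 9 weeks, when 1365 of all genes did in place of 413. At 13 weeks 12 passed, when 3948 of all genes did in place of 3744, and 6 of the 12 were among the 8. The 6 others were Gtf2a1, Polr2a, Polr2i, Polr3a, Polr3c and Polr3e, and both Ubtf (adjusted p = 0.0512 in limma) and Polr3d (adjusted p = 0.0779 in limma) no longer passed. At 9 weeks Rrn3 alone passed without any of the controls of that age, without the first or second mutant of that age, or without the first or second mutant at 13 weeks. With a term for sex in the fit all 8 of the calls at 13 weeks passed, with 3 more, when 46.5% of all genes passed. The balance of directions also moves with the scaling of the arrays: 3 higher and 5 lower as deposited, 3 higher and 9 lower after quantile normalization, and 3 higher and 12 lower after each array was centred on its median, which shifts the median of all genes at 13 weeks to −0.16. Among all tested genes 1932 were higher and 1812 lower as deposited, 1875 and 2020 after quantile normalization, and 1560 and 2386 after centring.

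**Figure D1:**
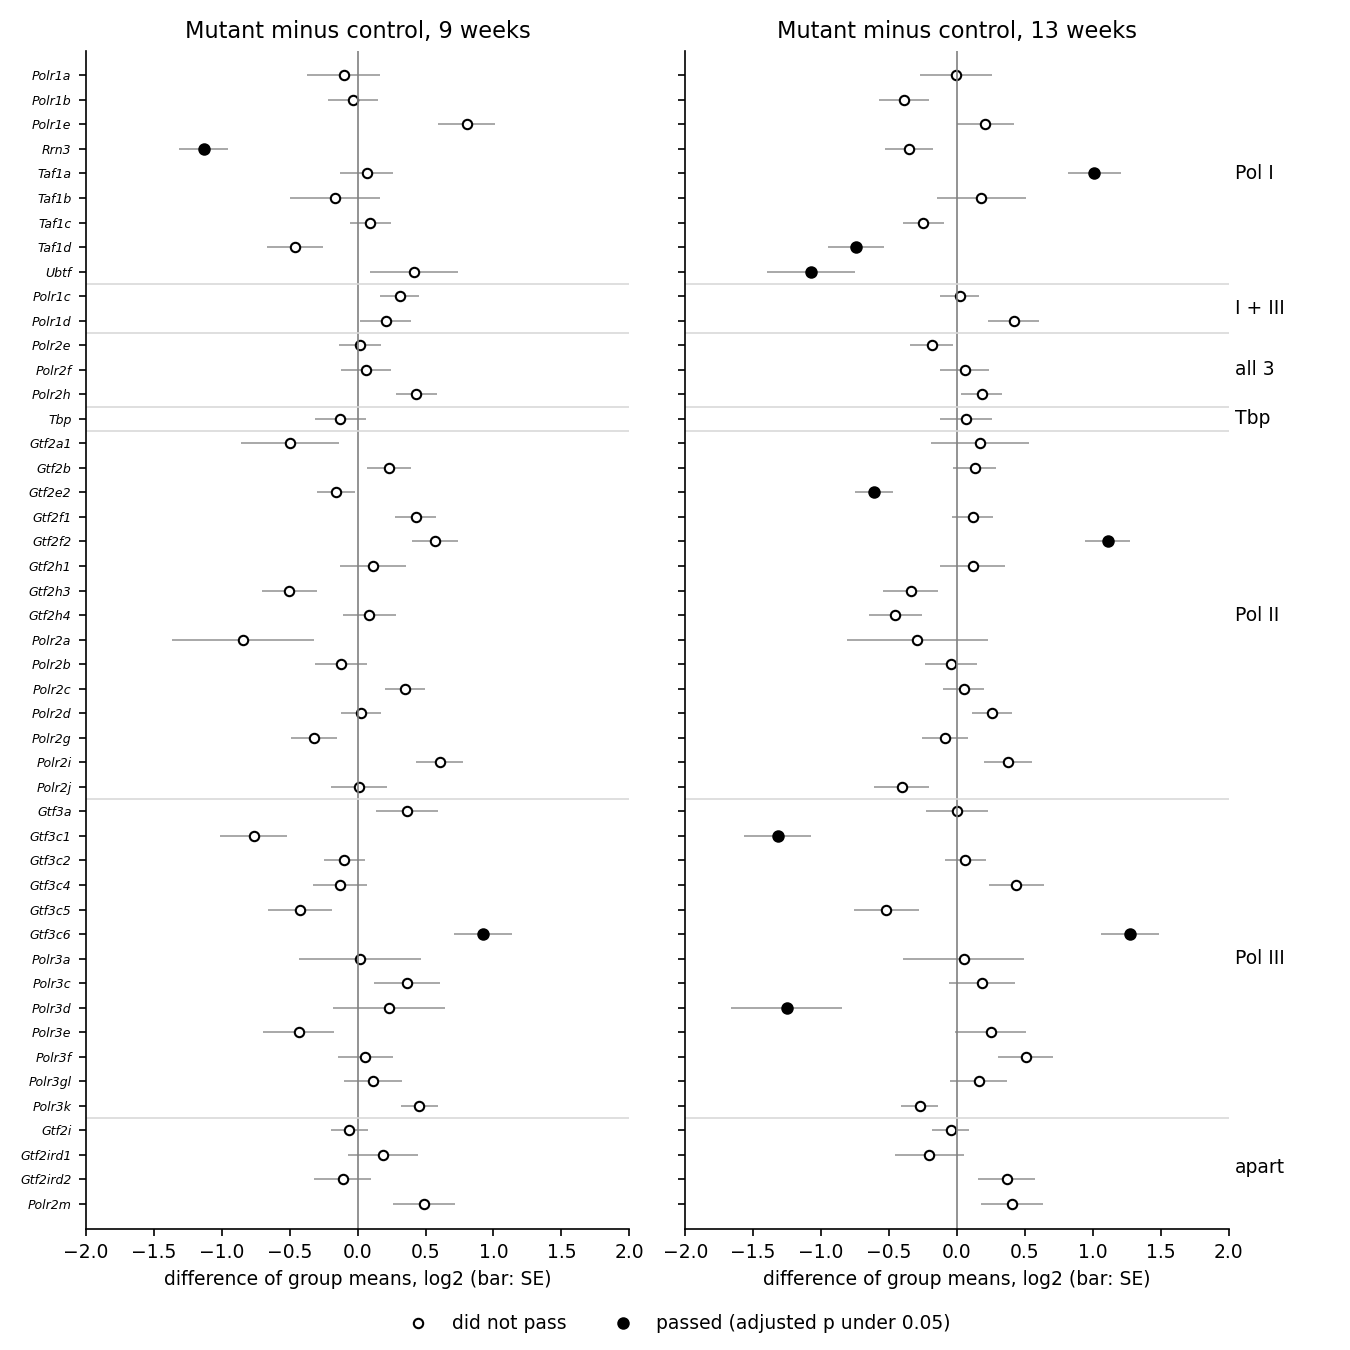
Difference of the mutant mean minus the control mean in log2 units (x axes; bars, SE from limma) for the 47 tested genes at 9 weeks (left) and 13 weeks (right), grouped by polymerase system; filled points passed the test. Most genes stay within 0.5 of 0 at both ages, with 2 filled points at 9 weeks and 8 at 13 weeks, of both signs.

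The sizes of the differences were set beside those of all tested genes. The median difference of the 47 genes was 0.06 at 9 weeks and 0.05 at 13 weeks, beside −0.02 and 0.00 over all tested genes. Without regard to sign, the median size at 9 weeks was 0.23 for the 47 genes and 0.25 for all genes. At 13 weeks it was 0.25 for the 47 genes and 0.53 for all genes. A size over 0.5 was reached at 13 weeks by 10 of the 47 genes, or 21.3%, and by 52.0% of all genes. A size over 1 was reached by 6 of them, or 12.8%, and by 26.7% of all genes. At 9 weeks 17.0% of the 47 genes and 21.3% of all genes differed by over 0.5. Within groups, the median SD of the 47 genes was 0.15 in mutants and 0.18 in controls at 9 weeks, and 0.15 in mutants and 0.31 in controls at 13 weeks.

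**Figure D2:**
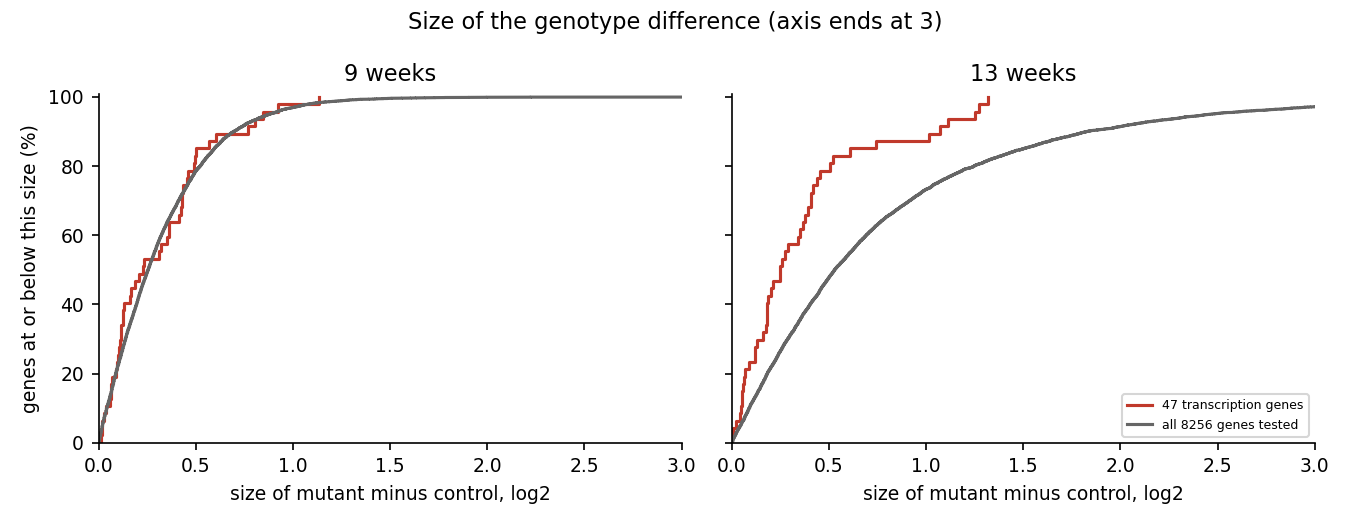
Share of genes (y axis, percent) whose mutant minus control difference is at or below a given size (x axis, log2 units), for the 47 transcription genes (red) and all 8256 tested genes (grey) at 9 weeks (left) and 13 weeks (right). The curves overlie each other at 9 weeks, with medians of 0.23 and 0.25, and at 13 weeks the red curve lies to the left, with medians of 0.25 and 0.53.

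In the polymerase I system the gene named by the mutation came first. Rrn3 read 6.90, 6.96 and 6.91 in mutants at 9 weeks, against 8.0, 7.97 and 8.20 in controls. The groups did not overlap, and the difference of −1.13 ± 0.18 (SE, n = 3 mice per group) is a 2.19-fold lower level in mutants, with adjusted p = 0.00748 in limma. It passed in each of the 12 fits that left out 1 array. At 13 weeks Rrn3 read 7.72, 7.58 and 7.18 in mutants, against 7.96, 7.54 and 8.04 in controls. Here the groups overlapped, and the difference of −0.35 ± 0.18 did not pass (adjusted p = 0.128 in limma). Its difference at 13 weeks minus its difference at 9 weeks was 0.78 ± 0.25, with adjusted p = 0.0525 in limma. Rrn3 has 1 probe set here, and where it lies relative to the deleted part of the gene was not analysed, so its level is no direct measure of recombination.

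The factor SL1 (TIF-IB in mouse) recognises the ribosomal DNA promoter and consists of Tbp with the proteins of Taf1a, Taf1b, Taf1c and Taf1d. Taf1a read 7.69, 7.08 and 6.80 in mutants at 13 weeks, against 6.17, 6.17 and 6.19 in controls. All 3 mutants were above all controls of either age, with a difference of 1.01 ± 0.20 (2.02-fold, adjusted p = 0.00135 in limma). At 9 weeks Taf1a read 6.24, 6.39 and 6.17 in mutants and 6.14, 6.21 and 6.25 in controls, and the groups overlapped. Taf1d read 6.10, 6.17 and 6.02 in mutants at 13 weeks, against 6.65, 7.28 and 6.59 in controls. The difference was −0.74 ± 0.20 (adjusted p = 0.0112 in limma), but 2 other probe sets of Taf1d rose, by 0.68 (adjusted p = 0.0178 in limma over probe sets) and 0.73 (adjusted p = 0.0487), so the array gives no single direction for this gene. At 9 weeks Taf1d read 6.20, 5.94 and 6.55 in mutants and 6.62, 6.67 and 6.78 in controls. Taf1c read 5.59, 5.57 and 5.57 in mutants at 13 weeks and 5.65, 5.88 and 5.94 in controls; these groups did not overlap, yet the difference of −0.25 did not pass (adjusted p = 0.206 in limma). At 9 weeks Taf1c read 5.98, 5.96 and 5.70 in mutants and 6.02, 5.68 and 5.66 in controls, and the groups overlapped. Taf1b differed by −0.17 at 9 weeks and 0.18 at 13 weeks and passed at neither age.

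Ubtf encodes UBF, the protein that coats active ribosomal genes. It read 6.04, 5.41 and 5.82 in mutants at 13 weeks, against 6.91, 6.49 and 7.09 in controls. Every mutant lay below every control, by −1.07 ± 0.33 (2.10-fold lower, adjusted p = 0.0185 in limma). A second probe set of Ubtf was also lower, by −0.70 (adjusted p = 0.0422 in limma over probe sets). At 9 weeks Ubtf read 7.0, 6.74 and 5.90 in mutants and 5.72, 6.74 and 5.94 in controls. These values spread over more than 1 unit within each group, and the difference of 0.41 did not pass (adjusted p = 0.513 in limma), while the second probe set gave −0.23. The call at 13 weeks was also lost without the second mutant of that age, with adjusted p = 0.0821 in limma.

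None of the enzyme's own subunits passed at either age. Polr1a, the largest subunit of the enzyme, differed by −0.10 at 9 weeks and −0.01 at 13 weeks. Polr1b, the second largest, read 3.84, 3.58 and 4.13 in mutants at 13 weeks and 4.36, 4.11 and 4.25 in controls, close to the level of the filter, with a difference of −0.39 that did not pass (adjusted p = 0.102 in limma). At 9 weeks Polr1b read 4.36, 4.29 and 4.54 in mutants and 4.41, 4.18 and 4.71 in controls. Polr1e, a subunit that contacts UBF, read 6.44, 6.66 and 5.90 in mutants at 9 weeks and 5.81, 5.23 and 5.55 in controls. The groups did not overlap, and the difference of 0.80 ± 0.21 fell just short of the threshold (adjusted p = 0.0507 in limma). At 13 weeks it differed by 0.21 and the groups overlapped.

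**Figure D3:**
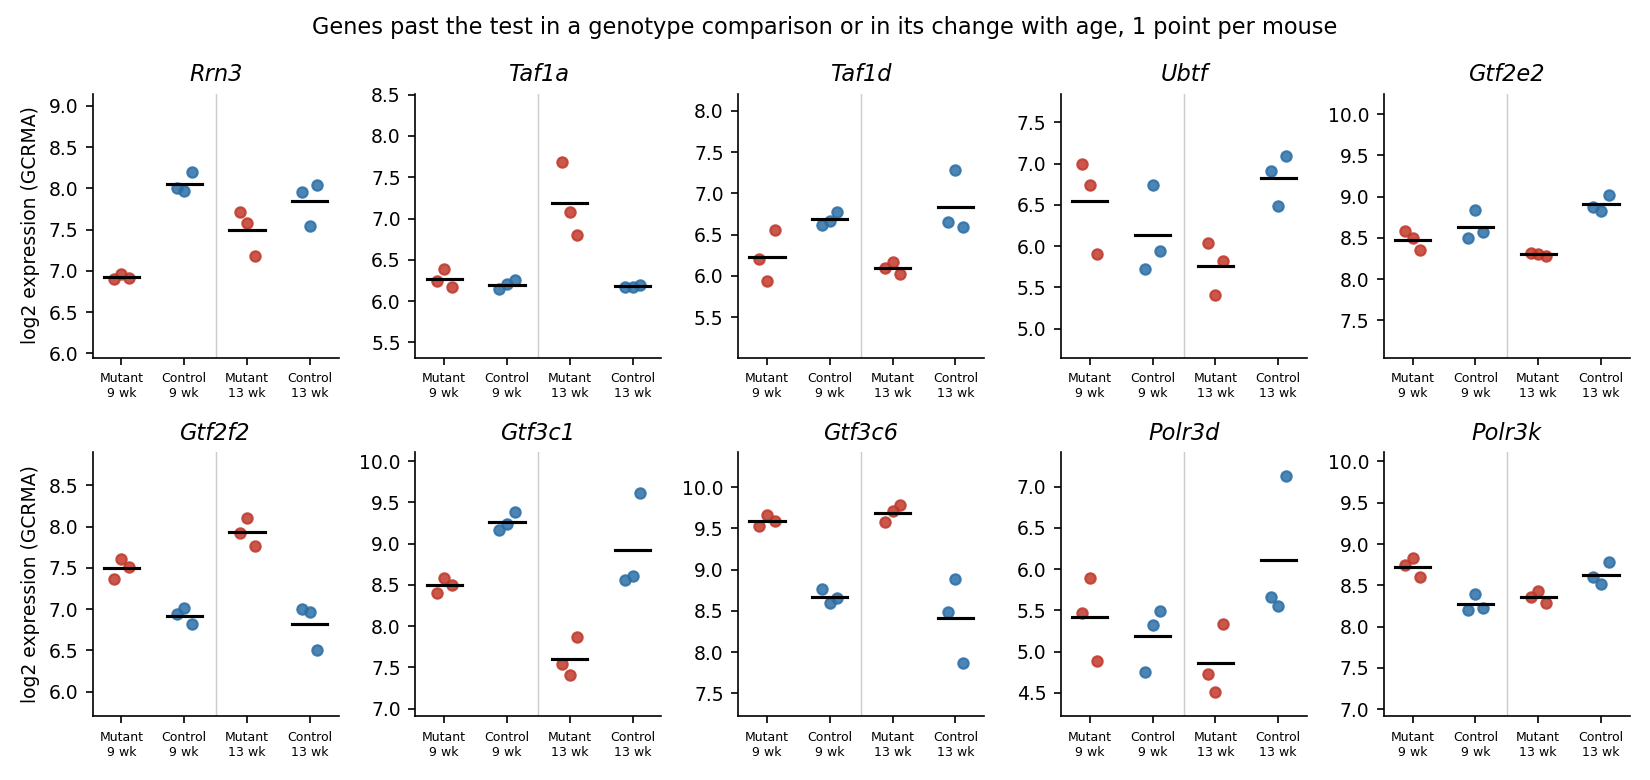
Log2 expression (y axes, each spanning 3.2 units) of the 10 genes that passed a genotype comparison or the genotype by age comparison, 1 point per mouse with the group mean as a line; mutants (red) stand left of controls (blue) at each age. Rrn3 separates at 9 weeks and overlaps at 13 weeks, and Taf1a is high in mutants at 13 weeks. At both ages Gtf3c6 and Gtf2f2 are higher without overlap, and Gtf3c1 and Taf1d lower without overlap. At 13 weeks 2 other probe sets of Taf1d, not drawn here, are higher in mutants. Polr3k separates at both ages with opposite signs.

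In the polymerase II system 2 of 15 genes passed at 13 weeks, or 13.3%, where 45.3% of all tested genes did. At 9 weeks none passed in limma, where 5% of all genes did, and 5 of 15, or 33.3%, had an unadjusted p under 0.05, where 21.4% of all genes had. Gtf2f2 encodes the small subunit of TFIIF, which escorts polymerase II to the promoter. It read 7.92, 8.11 and 7.77 in mutants at 13 weeks, against 7.0, 6.97 and 6.50 in controls. All mutants were higher, by 1.11 ± 0.17 (2.16-fold, adjusted p = 0.000234 in limma). Its values at 9 weeks were 7.36, 7.61 and 7.51 in mutants and 6.94, 7.01 and 6.82 in controls, which did not overlap either, although the difference of 0.57 did not pass (adjusted p = 0.0723 in limma). Its partner Gtf2f1, the large subunit of TFIIF, differed by 0.43 at 9 weeks and 0.12 at 13 weeks and passed at neither.

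Gtf2e2 encodes the small subunit of TFIIE, which recruits the helicase factor TFIIH. It read 8.32, 8.30 and 8.28 in mutants at 13 weeks, against 8.88, 8.83 and 9.02 in controls. Mutants were lower by −0.61 ± 0.14 (1.53-fold, adjusted p = 0.00386 in limma), a change larger than the spread of either group. Its values at 9 weeks were 8.58, 8.50 and 8.35 in mutants and 8.50, 8.84 and 8.57 in controls, and the groups overlapped. Gtf2h4, a TFIIH subunit, read 7.69, 7.62 and 7.67 in mutants at 13 weeks and 7.86, 7.95 and 8.53 in controls, with no overlap but without passing (−0.45, adjusted p = 0.0771 in limma). At 9 weeks Gtf2h4 read 8.24, 8.04 and 7.91 in mutants and 8.17, 7.71 and 8.05 in controls.

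Of the 7 subunits that belong to polymerase II alone, none passed at either age. Polr2i, a small subunit involved in transcript fidelity, read 10.36, 10.48 and 10.64 in mutants at 9 weeks and 9.84, 9.93 and 9.90 in controls. At 13 weeks it read 10.18, 10.11 and 10.10 in mutants and 9.37, 9.82 and 10.07 in controls. Mutants were above controls at both ages, by 0.60 (adjusted p = 0.0669 in limma) and 0.38 (adjusted p = 0.0964). Polr2j, part of the assembly core, read 9.16, 9.14 and 9.40 in mutants at 13 weeks and 9.30, 9.53 and 10.09 in controls, with overlap (−0.41, adjusted p = 0.123). At 9 weeks Polr2j read 9.37, 9.68 and 9.81 in mutants and 9.50, 9.62 and 9.71 in controls. Polr2d, a subunit of the stalk, read 7.98, 7.86 and 7.94 in mutants at 13 weeks and 7.75, 7.81 and 7.44 in controls, apart by 0.26 (adjusted p = 0.174). At 9 weeks Polr2d read 7.83, 7.65 and 7.96 in mutants and 7.67, 7.80 and 7.89 in controls.

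Polr2a, the largest subunit and the bearer of the C-terminal repeats, depended on 1 mouse. It read 5.11, 5.43 and 4.92 in mutants at 13 weeks, against 4.45, 4.76 and 7.12 in controls, where the third control was far above the rest. With all mice the difference was −0.29 (adjusted p = 0.673 in limma), and without that control it was 0.55 (adjusted p = 0.0301). At 9 weeks Polr2a read 4.64, 4.89 and 4.59 in mutants and 5.69, 5.62 and 5.34 in controls. Every mutant lay below every control, but the difference of −0.84 did not pass with a spread estimated over all 4 groups. The other 7 members of the set (Gtf2a1, Gtf2b, Gtf2h1, Gtf2h3, Polr2b, Polr2c and Polr2g) differed by between −0.50 and 0.35 at 9 weeks and between −0.34 and 0.17 at 13 weeks.

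In the polymerase III system 3 of 13 genes passed at 13 weeks, or 23.1%, where 45.3% of all tested genes did, and 1 passed at 9 weeks, or 7.69%, where 5% did. At 13 weeks 2 of the 3 are subunits of 1 complex, 1 lower and 1 higher. TFIIIC binds the internal promoter of transfer RNA genes. Gtf3c1, its largest subunit, read 7.54, 7.41 and 7.87 in mutants at 13 weeks, against 8.56, 8.61 and 9.61 in controls. All mutants were lower, by −1.32 ± 0.25 (2.50-fold, adjusted p = 0.00114 in limma). At 9 weeks it read 8.40, 8.58 and 8.50 in mutants and 9.16, 9.24 and 9.38 in controls, again without overlap (−0.77, adjusted p = 0.0988). Gtf3c6, its smallest subunit, read 9.58, 9.71 and 9.78 in mutants at 13 weeks, against 8.49, 8.89 and 7.87 in controls. All mutants were higher, by 1.27 ± 0.21 (2.42-fold, adjusted p = 0.000499 in limma). Its values at 9 weeks were 9.53, 9.66 and 9.59 in mutants and 8.76, 8.60 and 8.65 in controls, a difference of 0.92 ± 0.21 (1.90-fold, adjusted p = 0.0341). The call at 9 weeks held in 4 of the 12 fits that left out 1 array, with adjusted p up to 0.122, although the mice of the 2 groups lay apart, and with the mean of both probe sets the difference was 0.40 (adjusted p = 0.101). A dim second probe set of Gtf3c6, with a mean of 3.39, gave −0.12 at 9 weeks and 0.23 at 13 weeks.

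The other TFIIIC subunits did not pass. Gtf3c5 read 5.77, 6.10 and 5.96 in mutants at 13 weeks and 6.12, 6.29 and 6.98 in controls, lower without overlap (−0.52, adjusted p = 0.0944 in limma). At 9 weeks Gtf3c5 read 5.55, 5.99 and 6.20 in mutants and 6.31, 6.16 and 6.54 in controls, with overlap. Gtf3c4 read 8.33, 8.38 and 8.09 in mutants at 13 weeks and 8.05, 8.07 and 7.37 in controls, higher without overlap (0.44, adjusted p = 0.0977). Those differences within 1 complex thus ran both ways, without passing in either direction. At 9 weeks Gtf3c4 read 8.30, 8.07 and 7.90 in mutants and 8.07, 8.24 and 8.35 in controls. Gtf3c2 differed by −0.10 at 9 weeks and 0.06 at 13 weeks on the probe set used. Its 3 other probe sets over the filter were all lower at 13 weeks, by −0.76, −0.53 and −0.48. None of these passed (adjusted p = 0.0522, 0.112 and 0.0753 in limma over probe sets). With the mean of its probe sets the difference at 13 weeks was −0.425 (adjusted p = 0.0708 in limma). Gtf3a, the zinc finger factor of 5S RNA genes, differed by 0.36 at 9 weeks and 0.00 at 13 weeks.

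Among the enzyme's own subunits named Polr3, Polr3d passed at 13 weeks. Crcp, a subunit outside the symbol rule, also passed and is given below with the other genes. Polr3d read 4.73, 4.51 and 5.34 in mutants, against 5.66, 5.55 and 7.13 in controls. The difference was −1.25 ± 0.41 (2.38-fold lower, adjusted p = 0.0267 in limma). The third control again stood above the others, and without it the difference was −0.75 (adjusted p = 0.0779). The call was also lost without the first or the second mutant of that age. At 9 weeks Polr3d read 5.47, 5.89 and 4.89 in mutants and 4.75, 5.32 and 5.49 in controls, with overlap. Polr3f, which contacts the initiation factor TFIIIB, read 6.79, 6.86 and 6.85 in mutants at 13 weeks and 6.51, 6.23 and 6.24 in controls, higher without overlap (0.51, adjusted p = 0.0588). At 9 weeks it read 6.95, 6.32 and 6.15 in mutants and 6.48, 6.57 and 6.20 in controls. Another probe set of Polr3f gave 0.59 at 9 weeks and 0.01 at 13 weeks. With the mean of its probe sets the difference at 13 weeks was 0.26 (adjusted p = 0.48 in limma).

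Polr3a, the largest subunit of polymerase III, repeated the pattern of Polr2a with the sign turned. It read 6.49, 6.65 and 6.06 in mutants at 13 weeks, against 7.02, 7.02 and 5.01 in controls. With all mice the difference was 0.05 (adjusted p = 0.938 in limma), and without the third control it was −0.62 (adjusted p = 0.0474). Its values at 9 weeks were 7.58, 7.37 and 6.76 in mutants and 7.14, 7.25 and 7.27 in controls, with overlap. Another probe set of Polr3a gave −0.37 at 9 weeks and −0.29 at 13 weeks, without passing. Of the remaining subunits, Polr3c differed by 0.36 at 9 weeks and 0.18 at 13 weeks, Polr3gl by 0.11 and 0.16, and Polr3e by −0.43 and 0.25, all without passing.

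The shared parts of the machinery passed nowhere. Polr1c and Polr1d, which form the assembly platform of polymerases I and III, differed by 0.31 and 0.21 at 9 weeks and by 0.02 and 0.42 at 13 weeks, the last with adjusted p = 0.0874 in limma. Another probe set of Polr1d gave 0.45 at 9 weeks and −0.09 at 13 weeks. Polr2e, Polr2f and Polr2h, which all 3 enzymes contain, lay between 0.02 and 0.43 at 9 weeks and between −0.19 and 0.18 at 13 weeks. Tbp, used by all 3 systems, averaged 6.17 ± 0.28 in mutants and 6.30 ± 0.17 in controls at 9 weeks, and 6.29 ± 0.16 in mutants and 6.22 ± 0.27 in controls at 13 weeks (SD, n = 3 each). Of the genes set apart, Gtf2i, Gtf2ird1 and Gtf2ird2, a family of transcription factors, and Polr2m, which binds polymerase II, differed by −0.11 to 0.49 at 9 weeks and by −0.20 to 0.41 at 13 weeks. No gene of these groups passed at either age, although Polr2m at 9 weeks (10.25, 10.24 and 10.05 in mutants against 9.73, 9.74 and 9.60 in controls) was higher in every mutant.

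At 13 weeks each of the 3 systems held genes that were higher and genes that were lower in mutants. The median difference at 9 weeks was −0.04 for the 9 tested genes of polymerase I, 0.03 for the 15 of polymerase II and 0.06 for the 13 of polymerase III. At 13 weeks it was −0.25, 0.05 and 0.06 in the same order, beside 0.00 for all tested genes. At 13 weeks 3 genes of 9 passed for polymerase I (33.3%), and in all 3 sets the share was below the 45.3% of all genes. The mean level of the polymerase I set was 5.89 to 6.07 in mutants at 13 weeks and 6.11 to 6.15 in controls, without overlap, whereas at 9 weeks it was 5.94 to 6.22 in mutants and 6.13 to 6.22 in controls. The set means of polymerase II were 8.23 to 8.29 in mutants and 8.15 to 8.41 in controls at 13 weeks. Those of polymerase III were 7.29 to 7.35 in mutants and 7.27 to 7.47 in controls. For both of these the mutants lay inside the range of the controls. The polymerase I mean includes Rrn3 and the probe set of Taf1d whose direction is unsettled, and as a score over chosen genes it carries no test.

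**Figure D4:**
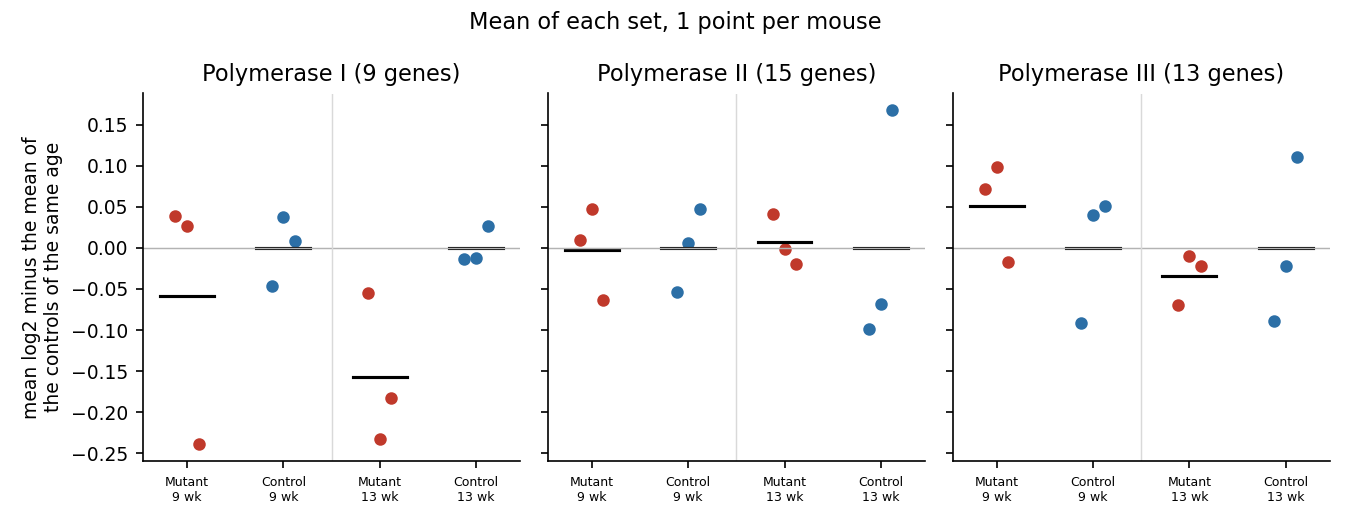
Mean log2 level of each set minus the mean of the controls of the same age (y axis), 1 point per mouse with group means as lines, for the 9 polymerase I, 15 polymerase II and 13 polymerase III genes; mutants (red) stand left of controls (blue). Mutants at 13 weeks lie below controls for polymerase I, at −0.05 to −0.23, and inside the range of the controls for polymerases II and III, where the third control is the highest point.

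Whether the genotype difference itself changed with age was tested as the difference at 13 weeks minus that at 9 weeks. It passed for 3 of 47 genes, or 6.38%, where 18.4% of all tested genes passed (12.1% upward and 6.38% downward). Taf1a had a difference of 1.01 at 13 weeks and 0.07 at 9 weeks, a change of 0.95 ± 0.28 (adjusted p = 0.0338 in limma). Ubtf had −1.07 at 13 weeks and 0.41 at 9 weeks, a change of −1.49 ± 0.46 (adjusted p = 0.0433). The third was Polr3k, the subunit of polymerase III that cleaves RNA and serves termination. It read 8.36, 8.43 and 8.28 in mutants at 13 weeks and 8.60, 8.51 and 8.78 in controls, and at 9 weeks 8.75, 8.83 and 8.60 in mutants and 8.20, 8.40 and 8.22 in controls. Mutants thus lay below controls at 13 weeks and above them at 9 weeks, with no overlap at either age, and the change was −0.73 ± 0.19 (adjusted p = 0.0217). Neither single difference of Polr3k passed (−0.27, adjusted p = 0.123, and 0.45, adjusted p = 0.0795), and 3 further probe sets of the gene over the filter gave changes of 0.07, 0.27 and −0.31 that did not pass. Each of the 3 calls was lost in some fits that left out 1 array: it held in 8 of 12 for Polr3k, 3 of 12 for Ubtf and 2 of 12 for Taf1a. That of Taf1a was also lost with a term for sex (adjusted p = 0.0548). Leaving out the third control at 13 weeks gave 6 calls, when 1950 of all genes passed in place of 1523. Leaving out the first control, the third control or the second mutant at 9 weeks, or the first mutant at 13 weeks, gave 0. Leaving out the first mutant at 9 weeks, the first control at 13 weeks or the second mutant at 13 weeks gave 1.

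Between the ages, 6 of 47 genes passed in mutants, or 12.8%, where 32.7% of all tested genes did (16.1% higher and 16.6% lower), and these comparisons share the mutant arrays with those above. Taf1a was higher in mutants at 13 than at 9 weeks by 0.92 (adjusted p = 0.00359 in limma), and its call held in all 12 fits without 1 array. Rrn3 was higher by 0.57 (adjusted p = 0.0291) and Polr3e by 0.73 (adjusted p = 0.0498). Gtf3c1 was lower by −0.89 (adjusted p = 0.017), Polr1b by −0.55 (adjusted p = 0.0383) and Polr1e by −0.62 (adjusted p = 0.0409). These 5 calls rest on few mice, since they held in between 2 and 9 of the 12 fits. All 3 mutants were female at 13 weeks, against 1 of 3 at 9 weeks, and with a term for sex the calls of Rrn3 (0.47, adjusted p = 0.113), Polr3e (0.46, adjusted p = 0.214) and Polr1e (−0.66, adjusted p = 0.068) were lost. Without the third control at 13 weeks 16 genes passed, when 3832 of all genes did in place of 2700. Without the second mutant at 9 weeks or the first or second mutant at 13 weeks 1 did, and without the first mutant at 9 weeks 3 did. After median centring of the arrays 1 was higher and 11 were lower, where 3 and 3 were as deposited. The share of all genes after centring is not given here. In controls none of the 47 passed in limma, where 0.145% of all tested genes did. An unadjusted p under 0.05 was found for 6 of the 47, or 12.8%, where 17.3% of all genes had one. When arrays were weighted by quality 6 passed, and the share of all genes in that fit is not given here. Rrn3 differed in controls by −0.21 (adjusted p = 0.561), so its levels at 13 weeks were 7.49 in mutants and 7.85 in controls, and those at 9 weeks 6.92 in mutants and 8.06 in controls.

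To show the control regions of the genes that moved most steadily, the 250 bases before the start of 5 of them are given 5′ to 3′ on the gene's strand, from the RefSeq table of build GRCm38.p6. They are the genes that passed a genotype comparison in every fit without 1 array, that have no other probe set moving the opposite way by 0.5 or more at that age, and that have a promoter in that table. Gtf2e2 passed likewise and is named only. Capitals mark matches on either strand to the E-box CACGTG, the cAMP response element TGACGTCA, the ETS factor motif CCGGAAG or the TATA motif TATAAA, none of which contains another. Taf1a and Gtf3c6 have 2 starts in the table, and the first was used.
Rrn3, chr16:13780449-13780698, plus strand, lower in mutants at 9 weeks: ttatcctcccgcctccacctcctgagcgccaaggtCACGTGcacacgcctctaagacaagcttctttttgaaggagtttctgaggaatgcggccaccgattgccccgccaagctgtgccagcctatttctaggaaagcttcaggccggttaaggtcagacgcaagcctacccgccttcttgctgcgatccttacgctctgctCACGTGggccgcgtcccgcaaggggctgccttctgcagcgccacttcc
Taf1a, chr1:183388635-183388884, plus strand, higher at 13 weeks: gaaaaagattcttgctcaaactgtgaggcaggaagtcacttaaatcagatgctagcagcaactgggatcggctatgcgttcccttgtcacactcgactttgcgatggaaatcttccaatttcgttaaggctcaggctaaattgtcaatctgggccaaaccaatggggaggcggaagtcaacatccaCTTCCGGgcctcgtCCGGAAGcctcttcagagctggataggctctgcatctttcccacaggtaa
Gtf2f2, chr14:76010866-76011115, minus strand, higher at 13 weeks: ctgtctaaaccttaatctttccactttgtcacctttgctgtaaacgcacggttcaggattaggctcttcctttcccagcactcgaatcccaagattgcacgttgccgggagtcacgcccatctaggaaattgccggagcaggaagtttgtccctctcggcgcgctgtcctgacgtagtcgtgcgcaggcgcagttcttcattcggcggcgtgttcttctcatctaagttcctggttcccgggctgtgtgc
Gtf3c1, chr7:125707689-125707938, minus strand, lower at 13 weeks: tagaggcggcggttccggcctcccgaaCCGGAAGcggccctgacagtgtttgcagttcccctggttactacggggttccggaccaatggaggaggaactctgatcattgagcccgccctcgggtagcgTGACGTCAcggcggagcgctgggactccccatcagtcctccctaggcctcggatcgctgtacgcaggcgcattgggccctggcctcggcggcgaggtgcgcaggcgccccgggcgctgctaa
Gtf3c6, chr10:40257713-40257962, minus strand, higher at 13 weeks: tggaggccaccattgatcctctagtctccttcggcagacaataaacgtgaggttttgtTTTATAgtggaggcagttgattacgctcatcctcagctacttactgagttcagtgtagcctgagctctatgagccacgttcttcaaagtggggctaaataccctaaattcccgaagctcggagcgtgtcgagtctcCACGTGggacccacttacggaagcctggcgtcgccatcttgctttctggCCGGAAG

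The 5 windows hold different motifs. That of Rrn3 has 2 E-boxes, that of Taf1a 2 ETS motifs and that of Gtf2f2 none of the 4. The 2 TFIIIC genes share an ETS motif, beside which Gtf3c1 has the cAMP response element and Gtf3c6 an E-box and a TATA motif. Of the 50 genes, 45 have a promoter in the table. Over these the E-box was found in 8, or 17.8%, against 6.05% of all 27025 genes of the table, and the ETS motif in 13, or 28.9%, against 7.05%. The cAMP response element was found in 2, or 4.44%, against 1.62%, and the TATA motif in 4, or 8.89%, against 13.0%. The 27025 genes include many that were not tested here, and the shares over the tested genes alone were not counted. These matches are of letters and say nothing of binding.

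Other genes of the same pathways were taken from lists of known components. Their counts of genes past the test at 13 weeks stand beside 45.3% of all tested genes, 23.4% higher and 21.9% lower. Of the 7 tested TAF subunits of TFIID, the polymerase II factor that holds Tbp, 1 was higher and 1 lower at 13 weeks, with a median of −0.16. Taf13 read 10.55 to 10.98 in mutants and 8.40 to 9.41 in controls, higher by 1.84 ± 0.25 (adjusted p = 0.000107 in limma), and Taf11, its partner in that complex, was lower by −0.86 (adjusted p = 0.00589). The third, Taf12, differed by 0.40 (adjusted p = 0.0898). Of 5 TFIIH partners 1 was higher, Mnat1, the assembly factor of the TFIIH kinase, by 0.65 (adjusted p = 0.0039), with a median of −0.08. Ccnh, the cyclin of that kinase, and the helicase Ercc3 both differed by −0.32 and did not pass.

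Mediator, which links activators to polymerase II, had 29 tested subunits, of which 5 were higher and 4 lower at 13 weeks, where 45.3% of all genes passed, with a median of −0.15. Med22 was higher by 1.04 (adjusted p = 0.000431 in limma), and Med16 and Med24, subunits of its tail, were lower by −1.81 (adjusted p = 0.000559) and −1.40 (adjusted p = 0.00124). At 9 weeks Med1 was lower by −0.66 (adjusted p = 0.0461), and it was the only one of the 29 to pass. Of 17 polymerase II elongation and pausing genes 2 were higher and 3 lower at 13 weeks, against the same 45.3%, with a median of −0.08. Cdc73 of the PAF complex was higher by 2.01 (adjusted p = 0.00581), Nelfb of the pausing factor NELF by 1.01 (adjusted p = 0.0127), and the pause release kinase Cdk9 was lower by −0.48 (adjusted p = 0.015).

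For polymerase I, Smarca5, a chromatin remodeller of the complex that silences ribosomal genes, was higher by 0.78 (adjusted p = 0.0158 in limma) and Sirt7, an activator of ribosomal RNA synthesis, was lower by −0.65 (adjusted p = 0.00787), out of 4 tested, where 45.3% of all genes passed. The median of the 4 was −0.12, and Baz2a, the partner of Smarca5, differed by −0.65 without passing (adjusted p = 0.092). For polymerase III 1 of 5 passed, against the same 45.3%. It was Crcp, a polymerase III subunit also known as a component of the CGRP receptor. It read 8.78 to 9.14 in mutants and 7.68 to 7.92 in controls at 13 weeks, higher by 1.20 ± 0.16 (adjusted p = 7.82e-05), and its change between the ages also passed (0.90, adjusted p = 0.014). Ssb, the La protein, and Snapc3, of the factor for small nuclear RNA genes, did not pass (adjusted p = 0.0605 and 0.134).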

How the data were processed

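RNA of 12 striata was measured on Affymetrix arrays. The deposited log2 values were made by the authors with GCRMA, per the submitters' processing notes, which give no version, and were used as deposited. Of 22690 probe sets, 64 controls were left out, 20380 carry 1 gene symbol in the platform annotation, 691 several and 1555 none. Among those with several, 2 hold a symbol that fits the selection and were not used, and no Brf1 probe set was used. All 50 genes matched RefSeq by Entrez gene number, with the same symbol.

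Group means were fitted with limma 3.58.1 in R 4.3.3 over all 12 arrays, with 8 residual degrees of freedom, and p-values were two-sided and adjusted over 8256 genes. Probe set values were adjusted over probe sets. Values in every array are given for Rrn3, for genes past the test at 9 weeks or in the comparison of ages, and for up to 6 genes per system with the smallest p at 13 weeks. A few others whose values turn on 1 mouse or lay near the threshold were added after their values were seen. The genes, lists and tests were chosen with earlier results of these data known. The code was tested on simulated data. With 3 arrays a group, their number limits the precision. The design text names 5 arrays per condition in one place and 3 mice in another, and 3 per group were analysed here. The alternatives tried were quantile normalization, median centring, no filter or a 60th percentile filter, averaging probe sets, another prior, array weights, only the groups compared, a replicate block, a term for sex, other thresholds, leaving out each array, and leaving out the 2 arrays high in Slc17a6 and Calb2.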

Additional observations from a re-analysis of the deposited data

Results flagged for a closer look

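The genotype difference changed between 9 and 13 weeks for 3 genes by the test of that change in limma. For Taf1a the difference at 13 weeks exceeded that at 9 weeks by 0.95 (adjusted p = 0.0338). For Polr3k the change was −0.73 (adjusted p = 0.0217) on the probe set used, and it was −0.17 on the mean of the gene's probe sets. For Ubtf it was −1.49 (adjusted p = 0.0433), with −0.47 on its other probe set (adjusted p = 0.404 over probe sets).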

How the results depend on the processing

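The number of genes past the test at 9 weeks (2) was 1 at a threshold of 0.01 and 7 at 0.1. It was 1 with the mean of probe sets, when 4.43% of all genes passed. With only the groups compared it was 8, when 12.7% of all genes passed, and with array weights 20, when 35.9% did. At 13 weeks (8) it was 5 at 0.01 and 14 at 0.1. It was 15 with median centring, when 47.8% of all genes passed, and 15 with array weights, when 59.6% did. The change between ages (3) gave 0 at 0.01 and 11 with array weights. Age in mutants (6) gave 1 at 0.01 and 12 at 0.1. It gave 12 with median centring, 11 with only the groups compared and 25 with array weights. Age in controls (0) gave 6 with array weights. For the change between ages, the age comparisons and the thresholds of 0.01 and 0.1, the share of all genes is not given here. Array weights raised the share of all genes at 9 weeks from 5% to 35.9%. Counts without that share are therefore not read as a result about the 47 genes. Without 1 array, the counts ran between 1 and 10 at 9 weeks, 6 and 12 at 13 weeks, 0 and 6 for the change between ages and 1 and 16 for age in mutants, and stayed 0 for age in controls. Over all genes they ran between 62 and 1365 at 9 weeks, 2716 and 3948 at 13 weeks, 812 and 1950 for the change, 1699 and 3832 for age in mutants and 0 and 22 for age in controls. Without the third control at 13 weeks the difference of Polr2a at 13 weeks turned to 0.55 (adjusted p = 0.0301 in limma) and that of Polr3a to −0.62 (adjusted p = 0.0474), out of ranges without 1 array of −0.79 to 0.55 and −0.62 to 0.39, and with the mean of probe sets Taf1d turned to 0.14 (adjusted p = 0.418). The cause was not tested.

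The groups share replicate numbers. Same-numbered arrays deviated together with a median correlation of 0.084 (−0.12 to 0.32), over 0.1 in 3 of 18 pairs. Yet 9 of 12 arrays correlated best, among the arrays of other groups, with an array of their own number. The numbers were not taken as pairs in the main fit, and whether they mark a shared batch was not tested. With the number as a replicate block 2 genes passed at 9 weeks, when 5.27% of all genes did, and 11 at 13 weeks, when 46.5% did. In that fit 2 passed for the change between ages, 5 for age in mutants and 0 for age in controls. The shares of all genes for these comparisons are not given here. The calls lost under it were the change of Ubtf (adjusted p = 0.0602 in limma) and the age differences in mutants of Polr1e and Polr3e, and Gtf3c5, Polr1b and Polr3f passed at 13 weeks.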
